A study of Mus musculus with 9 samples.

Results

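The genes described here carry glucose to acetyl-CoA: the enzymes of glycolysis, lactate dehydrogenase, the pyruvate dehydrogenase complex with its 4 kinases, the mitochondrial pyruvate carrier, and the membrane transporters for glucose, lactate and pyruvate. They were chosen by name, as the rows of the deposited count table that carry 1 of 33 gene names. These 33 names matched 34 of the 54532 gene identifiers in the table, because Aldoa stands there under 2 identifiers. RNA came from the hypothalamus of wild type male mice of the outbred stock ICR, taken on postnatal day 21, with 3 libraries in each of 3 groups. HA pups were nursed by dams on a high-fat high-sucrose (HFHS) diet, with 45% of energy as fat, and received 4-PBA (4-phenylbutyric acid), a chemical chaperone. HP pups had dams on the same HFHS diet and received PBS. LP pups had dams on a low-fat diet, with 10% of energy as fat, and received PBS. All dams began their diet at 5 weeks of age, 5 weeks ahead of mating, and kept it during gestation and nursing, and litters were set to 10 pups. Injections were daily in all groups on postnatal days 4 to 16, so HA differs from HP by the injected agent, HP from LP by the dams' diet, and HA from LP by both. A group of 4-PBA pups from low-fat dams is not among the libraries analysed here.

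Glycolysis splits glucose into pyruvate in the cytosol, with hexokinase and phosphofructokinase as its main control points. Pyruvate is then either reduced to lactate by lactate dehydrogenase or carried into the mitochondrion and oxidised by the pyruvate dehydrogenase complex, which the pyruvate dehydrogenase kinases switch off by phosphorylation. In the hypothalamus, neurons and glia that sense glucose take part in the control of feeding, and glucose reaches them across the blood-brain barrier.

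For 3 members, the sequence itself bears on what a count means, because a processed pseudogene elsewhere in the genome carries nearly the same letters. The pairs below come from the GENCODE M21 transcripts (GRCm38), cover 61 bases of coding sequence around 1 difference, and give the differing base in capitals. Substitutions name the member's base, its position counted from 1 at the A of the start codon, and the pseudogene's base. Gapdh (chr6:125161715-125166467), the enzyme that oxidises glyceraldehyde 3-phosphate, and Gm13394 (chr2:28933610-28934609) differ by 1 of 1000 aligned bases, A346C.
Gapdh, coding positions 316 to 376: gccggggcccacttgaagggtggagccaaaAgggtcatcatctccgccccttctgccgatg
Gm13394: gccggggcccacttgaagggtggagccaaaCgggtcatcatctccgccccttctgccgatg
Mpc1 (chr17:8282904-8297661), a subunit of the mitochondrial pyruvate carrier, and Mpc1-ps (chr12:110858565-110858894) differ by 1 of 330 aligned bases, G41A.
Mpc1, coding positions 11 to 71: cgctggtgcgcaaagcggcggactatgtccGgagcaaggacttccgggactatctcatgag
Mpc1-ps: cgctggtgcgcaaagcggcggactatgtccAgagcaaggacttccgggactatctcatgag
Eno1 (chr4:150236721-150248879), the enolase of most tissues, and Gm4735 (chr2:80837141-80838442) differ by 5 of 1302 aligned bases, of which T726C is shown.
Eno1, coding positions 696 to 756: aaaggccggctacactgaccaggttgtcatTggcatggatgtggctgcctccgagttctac
Gm4735: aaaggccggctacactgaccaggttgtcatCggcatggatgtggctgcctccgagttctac
A read that covers no differing base matches both copies equally well within the aligned stretch.

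Both copies held reads in the deposited counts. Gapdh itself held 594, 344 and 178 reads in the HA libraries, 176, 187 and 3230 reads in the HP libraries, and 185, 213 and 511 reads in the LP libraries. Its pseudogene Gm13394 held 6590 to 8319 reads per library, more than Gapdh in all 9 libraries. HP replicate 3 came nearest, with 3230 reads under Gapdh and 7645 under Gm13394. How the reads were assigned between the copies was not tested. A Gapdh fold change would follow that 1 library: the log2 fold change of HP against LP was 2.03 with all libraries (standard error, SE, 1.0, edgeR adjusted p = 0.829) and -0.67 without HP replicate 3. With the counts of its 176 matching pseudogenes added to Gapdh, the summed level was 429, 406 and 386 CPM (counts scaled to library size) in HA, 410.0, 398 and 593 CPM in HP, and 443, 432 and 417 CPM in LP. On the summed counts HP replicate 3 remained the highest library, and HP differed from LP by 0.12 on the log2 scale (SE 0.13, edgeR adjusted p = 0.922). Mpc1-ps likewise held 650 to 925 reads per library, and all pseudogenes matching Mpc1 together held 248% of the reads of Mpc1 itself. Gm4735 held 1819 to 2199 reads per library, and the pseudogenes of Eno1 together held 31.8% of its reads. The pseudogene of Ldhb held 6.94%, and no other member's pseudogenes held over 5% of its own count. Adding these counts left Mpc1 and Eno1 level between groups, with log2 fold changes of -0.02 to 0.02 for Mpc1 and -0.01 to 0.04 for Eno1 over the 3 comparisons.

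**Figure D1:**
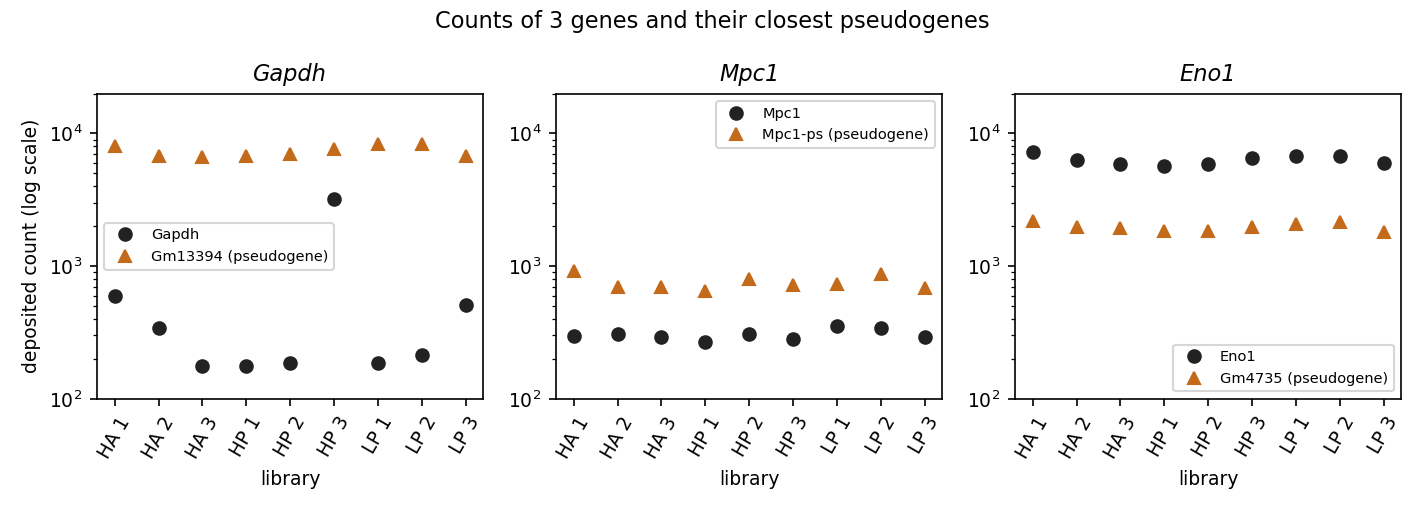
Deposited counts (log scale) of Gapdh, Mpc1 and Eno1 (circles) and of the closest pseudogene of each (triangles) in every library, in the order HA, HP, LP. Gapdh lies between 176 and 594 reads except in HP replicate 3, with 3230, while Gm13394 stays between 6590 and 8319.

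The libraries held 18226924 to 21823961 counts each, of which the members took 0.862% to 0.937%. The tissue check found 13 of 14 hypothalamic marker genes and 8 of 8 neuron markers expressed, with Kiss1 at 0 in all libraries. HA replicate 3 and LP replicate 3 stood apart in markers of meningeal fibroblasts, with all 10 listed markers expressed. Their summed level was 94.5, 113 and 1125 CPM in HA, 95.5 to 166 CPM in HP, and 86.4, 104 and 548 CPM in LP. The 7 listed striatal genes, all expressed, summed to 140.3 to 156 CPM in HA, 147 to 154 CPM in HP, and 267, 362 and 148 CPM in LP. Titles carry a code of unstated meaning, which is Hg13 in HA replicate 3 and HP replicate 3, Hg43 in the other HA and HP libraries, and different in LP. Title code and diet therefore cannot be told apart. The labels do not say which pups were littermates, and p-values here reflect variation among the sequenced libraries only. In bulk tissue, fewer cells of a type and less RNA per cell cannot be told apart.

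Per unit of transcript length, the most abundant members were glycolytic enzymes from aldolase onward and Ldhb of lactate dehydrogenase. In FPKM, which divides by transcript length, Aldoa averaged 352 over the 9 libraries, Aldoc 257, Pkm 223, Tpi1 218, Ldhb 212, Eno2 206, Pgam1 187 and Pgk1 177. Of the steps before aldolase, Pfkm stood at 99.6 FPKM, Gpi1 at 71.1 FPKM and Hk1 at 31.1 FPKM. Among lower-pathway genes with many pseudogene reads, Eno1 was listed at 60.1 FPKM and Gapdh at 7.77 FPKM. The subunits of the pyruvate dehydrogenase complex lay at 24.9 FPKM (Dlat) to 44.2 FPKM (Pdhb). Its kinases were scarcer, at 23.0 FPKM for Pdk2, 8.08 FPKM for Pdk3, 5.39 FPKM for Pdk1 and 3.41 FPKM for Pdk4. The least abundant members were Slc16a7 at 1.62 FPKM, the other Aldoa identifier at 1.39 FPKM, Slc16a3 at 1.15 FPKM and Hk2, the hexokinase of muscle and fat, at 0.98 FPKM.

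Isoform shares hardly varied for hexokinase, phosphofructokinase, aldolase and enolase. Hk1, the brain hexokinase, made up 96.1% to 97.8% of hexokinase FPKM in the 9 libraries. Pfkm made up 72.3% to 74.8% of phosphofructokinase, Aldoa 56.3% to 59.2% of aldolase, and Eno2, the neuronal enolase, 76.4% to 78.3% of enolase. For all 4 of these shares the ranges of the 3 groups overlapped. The enolase share counts only reads listed under Eno1 itself, whose pseudogenes together held 31.8% as many. With those reads counted as Eno1, the Eno2 share would be lower.

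All 34 identifiers passed the filter on low counts and were tested, within a fit over 17546 genes. No member passed an adjusted p of 0.05 in edgeR in any of the 3 comparisons. DESeq2 called 1 member, Pdk1, for HP against LP and 0 elsewhere, and limma-voom called 0. Over all genes the edgeR fit called 0.0114% in HP against LP, 0.0114% between HA and HP, and 0% in the comparison of HA with LP. At an unadjusted p under 0.05, 3 of 34 members (8.82%) stood apart for HP against LP, all higher in HP, beside 6.12% of all genes (3.12% higher and 3% lower). In the comparison of HA with HP there were 3 members (8.82%), 1 higher and 2 lower in HA, beside 5.42% of all genes (3% higher and 2.42% lower). For HA against LP there were 4 members (11.8%), 2 higher and 2 lower in HA, beside 6.51% of all genes (3.06% higher and 3.45% lower). Groups did not overlap in CPM for 3 members (8.82%) between HP and LP, beside 11.8% of all genes. The number was 4 (11.8%) between HA and HP, beside 11.8% of all genes, and 5 (14.7%) between HA and LP, beside 10.9% of all genes. Shares of members called or separated were thus near those of all genes. The members' median log2 fold change was -0.01 between HP and LP, -0.02 between HA and HP and -0.02 between HA and LP, and that of all genes was 0.00, 0.00 and 0.01 in the same order.

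Across the 9 libraries, the highest was under 1.2 times the lowest for 19 of 34 identifiers (55.9%), beside 28.2% of the genes tested, a comparison not matched for level. Confidence intervals were narrow for the main enzymes. For the 19 enzymes of glycolysis, lactate dehydrogenase and the pyruvate dehydrogenase complex that averaged over 100 CPM, every 95% interval of the difference lay between -12.1% and 20.7% for HP against LP. The intervals of the same 19 lay between -14.6% and 15.04% for HA against HP, and between -13.2% and 15.4% for HA against LP. The largest estimate among them was 0.14 on the log2 scale, for Pfkl in HP against LP.

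**Figure D2:**
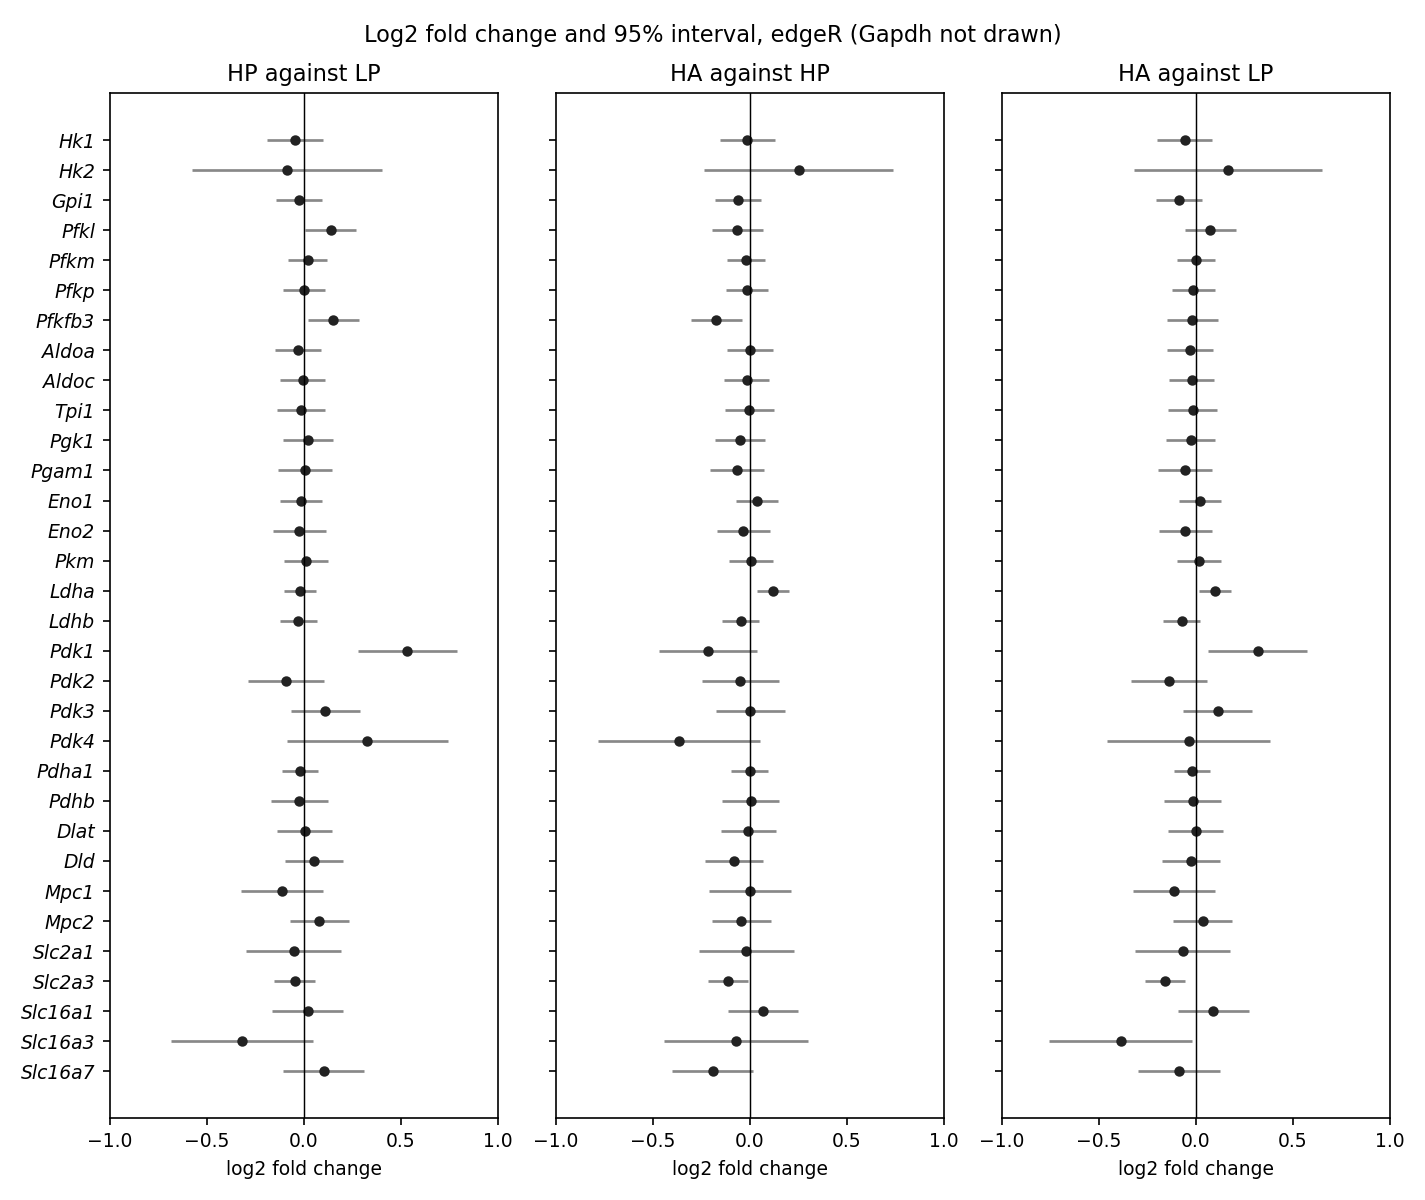
Log2 fold change (point) and 95% interval (line) from edgeR for 32 members, in the order of the pathway, in panels for HP over LP, HA over HP and HA over LP. Most points lie close to 0 with short lines, and Pdk1 in HP against LP, at 0.53, lies farthest from 0 relative to its line.

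At the entry of glycolysis, Hk1 had 270.4, 270.5 and 245 CPM in HA, 274, 241 and 276 CPM in HP, and 287, 261 and 268 CPM in LP. The groups overlapped. Hk2 stood at 4.17 to 7.53 CPM over all libraries, with no group apart.

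Among the phosphofructokinases, which commit sugar to glycolysis, Pfkm had 339, 330.0 and 328 CPM in HA, 350.3, 331 and 329 CPM in HP, and 336, 344 and 316 CPM in LP. Pfkl, the liver-type subunit, had 135, 124 and 122 CPM in HA, 135, 125 and 139 CPM in HP, and 120.2, 114 and 128 CPM in LP. Its log2 fold change was 0.14 for HP against LP (SE 0.06, edgeR adjusted p = 0.810), and LP replicate 3 lay above the lowest HP library. Pfkp stayed between 207 and 235 CPM.

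Pfkfb3 makes fructose 2,6-bisphosphate, the strongest activator of phosphofructokinase. It had 57.5, 57.5 and 58.7 CPM in HA, 62.2, 68.7 and 64.8 CPM in HP, and 58.9, 62.3 and 54.8 CPM in LP. HP lay above HA without overlap, while LP replicate 2 was level with the lowest HP library. The log2 fold change was 0.15 for HP against LP (SE 0.06, edgeR adjusted p = 0.807) and -0.17 for HA against HP (SE 0.06, edgeR adjusted p = 0.840), and both use the same HP libraries. The lack of overlap fixes the sign within each title code. HA lay below HP by 0.19 on the log2 scale in the Hg43 libraries and by 0.14 in the Hg13 pair, with 1 library per group.

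From aldolase onward, Aldoa had 1040.2, 1028 and 993 CPM in HA, 1043, 968 and 1049 CPM in HP, and 1061, 988 and 1074 CPM in LP. Its other identifier held about 1 CPM and was called in no comparison. Eno2 had 998, 962 and 893 CPM in HA, 1002, 916 and 999.6 CPM in HP, and 1037, 959 and 965 CPM in LP. In both genes the groups overlapped and replicates differed by as much as groups. Pkm, pyruvate kinase of brain and muscle, was the steadiest member, at 1126 ± 39.9 CPM in HA, 1122 ± 41.2 CPM in HP and 1112 ± 25.9 CPM in LP (SD, n = 3 each). Gpi1, Aldoc, Tpi1, Pgk1, Pgam1 and Eno1 had adjusted p-values of 0.816 to 0.997 over the 3 comparisons in edgeR.

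At lactate dehydrogenase the HA libraries stood apart without passing the test. Ldha, whose subunit prevails in tissues that make lactate, had 280.2, 291 and 295 CPM in HA, 258, 271 and 268 CPM in HP, and 267, 275 and 265 CPM in LP. Every HA library lay above every HP and LP library. The log2 fold change was 0.12 for HA against HP (SE 0.04, edgeR adjusted p = 0.840) and 0.10 for HA against LP (SE 0.04, edgeR adjusted p = 0.756), so neither passed the adjustment over all genes. Within title codes, where the lack of overlap fixes the sign, HA exceeded HP by 0.11 in the Hg43 libraries and by 0.14 in the Hg13 pair. Ldhb, whose subunit prevails in tissues that burn lactate, had 326, 318 and 329 CPM in HA, 344, 319 and 340.2 CPM in HP, and 335, 354 and 334 CPM in LP. Every HA library lay below every LP library in Ldhb, while HA and HP overlapped, and Ldhb was called in no comparison. As a share of the summed FPKM of Ldha and Ldhb, Ldha made up 29.7% ± 0.67 in HA, 27.4% ± 1.26 in HP and 27.2% ± 0.27 in LP (SD, n = 3 each). The HA shares, from 28.9% to 30.3%, overlapped neither the HP nor the LP shares, although the highest HP share was 28.7%.

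**Figure D3:**
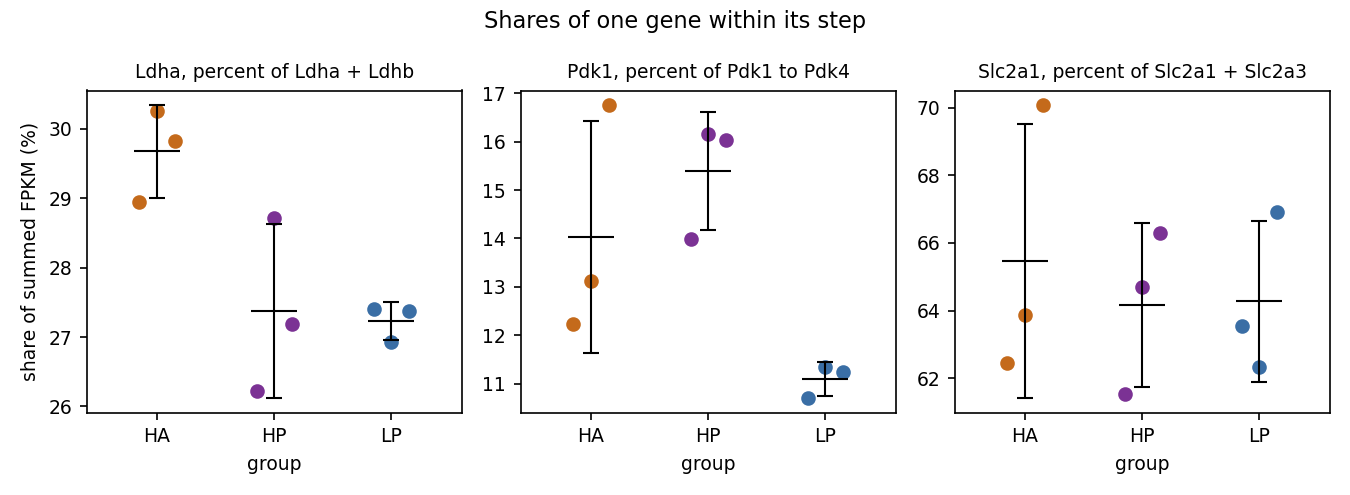
Share of Ldha in Ldha plus Ldhb, of Pdk1 in the 4 kinases, and of Slc2a1 in Slc2a1 plus Slc2a3, in percent of summed FPKM; points are libraries, bars the mean and SD of 3, and the axes do not start at 0. The HA shares of Ldha lie above all others, the Pdk1 shares of LP lie below all others, and the Slc2a1 shares overlap.

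The pyruvate dehydrogenase kinases held the largest separation among the members. Pdk1 (chr2:71873224-71903858) had 37.2, 38.6 and 52.2 CPM in HA replicates 1, 2 and 3, 48.8, 49.1 and 50.6 CPM in HP, and 31.8, 35.7 and 34.9 CPM in LP. All HP libraries and all HA libraries lay above all LP libraries, and HA replicates 1 and 2 were close to LP while HA replicate 3 was at the HP level. Means were 42.6 ± 8.31 CPM in HA, 49.5 ± 0.953 CPM in HP and 34.2 ± 2.07 CPM in LP (SD, n = 3 each). The log2 fold change of HP against LP was 0.53 (SE 0.11), an increase of 21.4% to 72.9% at 95%, with an adjusted p of 0.464 in edgeR. Whether it passed depended on the method and on 1 library: the adjusted p was 0.00733 in DESeq2, 0.00578 in edgeR without the filter on low counts, 0.455 in limma-voom, and 0.0234 in edgeR without HA replicate 3. HA replicate 3 is in neither group of that comparison, and enters through the spread that the 3 groups share. Pdk1 also passed in edgeR, with an adjusted p of 0.00817, once both libraries rich in meningeal markers were dropped. It passed for HP against LP in no other alternative run, and its adjusted p over all of them went as high as 0.984. The fold change itself moved little, between 0.49 and 0.57 with any 1 library left out.

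For HA against HP, Pdk1 differed by -0.22 on the log2 scale (SE 0.11, edgeR adjusted p = 0.840), and without HA replicate 3 by -0.38 (edgeR adjusted p = 0.243). In the Hg43 libraries HA lay below HP by 0.37 on the log2 scale, and in the Hg13 pair HA lay above HP by 0.05, so the direction differed between the codes. For HA against LP the value was 0.32 (SE 0.11, edgeR adjusted p = 0.756), and 0.15 without HA replicate 3 (edgeR adjusted p = 0.874). HA replicate 3 was also the library with 1125 CPM of meningeal markers. All 7 striatal markers had lower estimates in HP than in LP and in HA than in LP. All 8 oligodendrocyte markers had higher estimates in HP than in LP and lower estimates in HA than in HP, as Pdk1 did. In HA against LP all 8 had lower estimates, unlike Pdk1, whose estimate was higher. The oligodendrocyte sums were 19780, 14334 and 11703 CPM in HA, 19729, 20579 and 17191 CPM in HP, and 13303, 20686 and 15067 CPM in LP. HA replicate 3 thus had the lowest oligodendrocyte sum and the highest Pdk1 level. The part of the meningeal, striatal and oligodendrocyte markers in the Pdk1 levels was not tested.

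None of the other kinases was called in edgeR. Pdk2, the most widely expressed kinase, had 75.6, 68.2 and 65.4 CPM in HA, 82.9, 64.4 and 69.2 CPM in HP, and 74.5, 77.0 and 78.8 CPM in LP. The groups overlapped throughout, and the log2 fold changes were -0.09 for HP against LP (edgeR adjusted p = 0.912) and -0.14 for HA against LP (edgeR adjusted p = 0.823). Pdk3 had 21.0, 20.3 and 22.7 CPM in HA, 20.5, 21.98 and 21.4 CPM in HP, and 18.2, 20.8 and 20.1 CPM in LP, with overlap throughout. Pdk4, the kinase that fasting induces in many tissues, had 7.69, 11.7 and 13.4 CPM in HA, 15.3, 13.5 and 13.3 CPM in HP, and 12.1, 11.99 and 9.41 CPM in LP. All HP libraries lay above all LP libraries, while HA spanned both. Its log2 fold change was 0.33 for HP against LP (SE 0.19, edgeR adjusted p = 0.856) and -0.36 for HA against HP (SE 0.19, edgeR adjusted p = 0.840). The first value was 0.22 without LP replicate 3, and the second -0.17 without HA replicate 1. Between HA and HP, Pdk4 differed by -0.57 on the log2 scale in the Hg43 libraries and by 0.01 in the Hg13 pair, so its direction was not held across the codes.

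**Figure D4:**
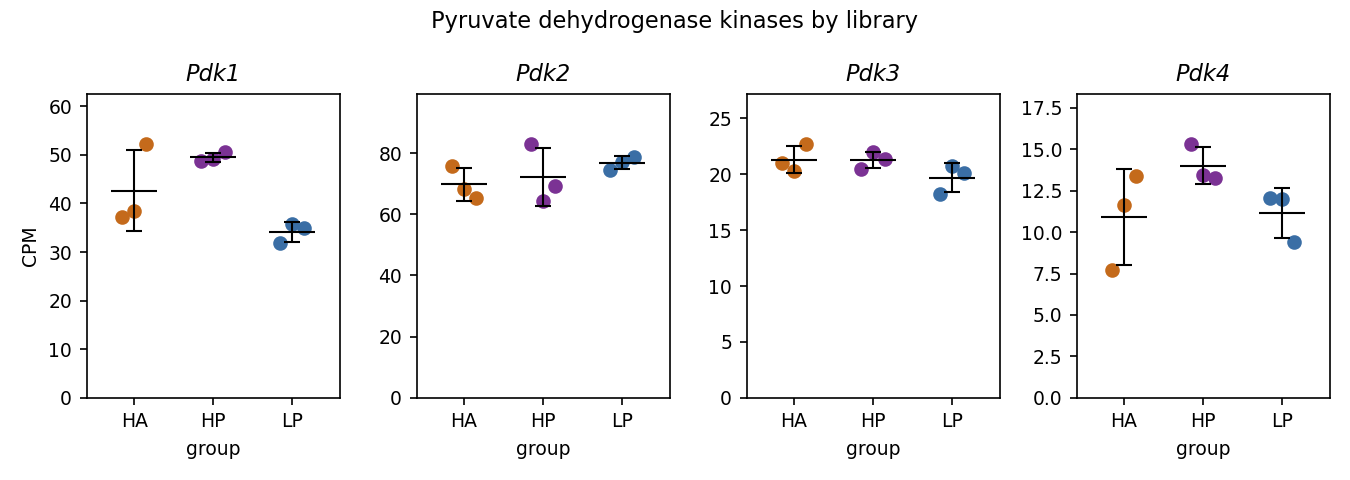
CPM of Pdk1 to Pdk4 in each library (points) with the mean and SD of each group (bars), from 0. Pdk1 lies between 48.8 and 50.6 CPM in HP and between 31.8 and 35.7 CPM in LP, with HA replicate 3 at 52.2 CPM and the other HA libraries at 37.2 and 38.6 CPM.

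The balance among the kinases followed these levels. Pdk1 made up 14.0% ± 2.40 of summed kinase FPKM in HA, 15.4% ± 1.22 in HP and 11.1% ± 0.35 in LP (SD, n = 3 each), and Pdk2 made up 56.6% ± 4.80 in HA, 54.8% ± 3.27 in HP and 61.4% ± 1.12 in LP. The LP shares of Pdk1, from 10.7% to 11.3%, lay below those of every HA and HP library. Summed kinase FPKM was 38.8 ± 1.06 in HA, 41.3 ± 2.96 in HP and 39.4 ± 1.2 in LP, with overlap between groups. The targets of the kinases differed by less than the spread between libraries: Pdha1, the subunit they phosphorylate, averaged 163 ± 1.48 CPM in HA, 163 ± 3.69 CPM in HP and 165 ± 7.87 CPM in LP. Pdhb, Dlat and Dld had edgeR adjusted p-values of 0.862 to 0.999 over the 3 comparisons. The pyruvate carrier subunits Mpc1 and Mpc2 showed log2 fold changes of -0.11 to 0.08, with none past the threshold.

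The start regions shown are those of Pdk1, Pdk4 and Ldha, genes at the pyruvate branch whose groups did not overlap in CPM in at least 1 comparison. Ldhb met the same rule in HA against LP, and its region is not shown. For Pdk4 the groups lay apart in HP against LP only, and its log2 fold change, given above with its SE, did not pass the adjusted threshold in edgeR. The regions are RefSeq windows on GRCm38.p6, from 250 bases before the annotated start to 50 after it, read 5′ to 3′ on the gene's strand. Capitals mark the cores ACGTG and GCGTG of the hypoxia response element on either strand, and an E-box CACGTG holds ACGTG on both strands.
Pdk1, chr2:71872974-71873273, plus strand: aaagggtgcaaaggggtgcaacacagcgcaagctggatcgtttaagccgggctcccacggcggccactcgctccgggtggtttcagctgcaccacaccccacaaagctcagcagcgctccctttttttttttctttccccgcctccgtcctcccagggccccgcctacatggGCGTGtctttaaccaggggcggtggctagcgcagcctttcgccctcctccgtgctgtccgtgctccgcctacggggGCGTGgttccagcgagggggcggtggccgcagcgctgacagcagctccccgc
Pdk4, chr6:5496229-5496528, minus strand: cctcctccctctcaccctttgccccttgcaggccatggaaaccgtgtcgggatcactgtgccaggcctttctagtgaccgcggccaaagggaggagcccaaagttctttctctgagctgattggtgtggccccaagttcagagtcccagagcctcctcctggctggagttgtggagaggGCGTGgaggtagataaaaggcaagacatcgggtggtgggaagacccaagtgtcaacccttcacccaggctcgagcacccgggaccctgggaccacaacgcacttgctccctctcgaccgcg
Ldha, chr7:46845554-46845853, plus strand: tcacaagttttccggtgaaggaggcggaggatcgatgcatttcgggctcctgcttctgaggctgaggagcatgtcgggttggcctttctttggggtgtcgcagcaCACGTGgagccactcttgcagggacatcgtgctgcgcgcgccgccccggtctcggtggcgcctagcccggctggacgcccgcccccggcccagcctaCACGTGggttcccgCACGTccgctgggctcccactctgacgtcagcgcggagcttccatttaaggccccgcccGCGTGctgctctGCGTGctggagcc
The RefSeq table also lists a second start for Pdk1, whose window (chr2:71874654-71874953) holds 0 matches, and for Ldha (chr7:46846832-46847131), with 2 of GCGTG. Of the windows shown, that of Pdk1 holds 2 matches of GCGTG, that of Pdk4 holds 1, and that of Ldha holds 2 of GCGTG and 5 of ACGTG, of which 4 are the strands of 2 CACGTG sites. The window of Ldhb, not shown, holds 1 match of GCGTG and 0 of ACGTG. Promoters of 31 of 33 members were found in the RefSeq table, and 26 of these (83.9%) had ACGTG or GCGTG in at least 1 window. The share was 64.7% over the 12356 tested genes with a promoter and 46.7% over all 27025 genes of the table. These shares were not matched for the number of windows per gene, base composition or expression level. The forkhead motif GTAAACA was found in 1 of the 31 members, or 3.23%, beside 3.17% of tested genes. A match is a run of letters and not a measured binding site.

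Glucose enters brain through Slc2a1, the transporter of the blood-brain barrier and glia, and enters neurons through Slc2a3. Slc2a1 had 132, 141 and 180.3 CPM in HA, 143, 147 and 169 CPM in HP, and 158, 147 and 171 CPM in LP. Replicate 3 was the highest in each group, and the groups overlapped. The 12 endothelial markers, all expressed, summed to 390.0, 406 and 564 CPM in HA, 388, 383 and 429.5 CPM in HP, and 357, 425 and 472 CPM in LP, so replicate 3 was also the highest there in each group. Their part in the Slc2a1 levels was not tested.

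Slc2a3 had 164, 165 and 159 CPM in HA, 185, 166 and 177 CPM in HP, and 187, 183 and 175 CPM in LP. All HA libraries lay below all others, narrowly so against HP replicate 2. The log2 fold change was -0.11 for HA against HP (SE 0.05, edgeR adjusted p = 0.840) and -0.16 for HA against LP (SE 0.05, edgeR adjusted p = 0.663), and leaving out any 1 library kept the second between -0.18 and -0.14. Within title codes, where the lack of overlap fixes the sign, HA lay below HP by 0.09 in the Hg43 libraries and by 0.15 in the Hg13 pair. All 8 neuron markers, of which Eno2 is itself a member, had lower estimates in HA than in HP and in LP, with none called. Their sums were 3837 to 4335 CPM in HA, 4010 to 4444 CPM in HP, and 4346 to 4547 CPM in LP. Their part in the Slc2a3 difference was not tested.

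Lactate and pyruvate cross membranes through the monocarboxylate transporters. Slc16a1, the form of endothelium and glia, made up 84.5% to 88.6% of the FPKM of the 3 transporters. It had 80.8, 85.0 and 87.3 CPM in HA, 85.7, 84.6 and 71.1 CPM in HP, and 73.9, 87.1 and 76.7 CPM in LP, with overlap throughout. Slc16a7, the neuronal form, had 18.1, 18.4 and 17.7 CPM in HA, 21.8, 18.8 and 21.3 CPM in HP, and 21.5, 17.9 and 18.2 CPM in LP. HA lay below HP without overlap, with a log2 fold change of -0.19 (SE 0.09, edgeR adjusted p = 0.840). Slc16a3, the astrocyte form that exports lactate, had 5.94, 4.81 and 5.65 CPM in HA, 6.35, 5.18 and 5.70 CPM in HP, and 6.38, 6.35 and 8.76 CPM in LP. The highest HP library and the lowest LP library were nearly tied, and LP replicate 3, the LP library with the highest meningeal markers, stood above the rest. The log2 fold change was -0.39 for HA against LP (SE 0.17, edgeR adjusted p = 0.757) and -0.32 for HP against LP (SE 0.17, edgeR adjusted p = 0.832). Without LP replicate 3 these were -0.21 and -0.15.

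**Figure D5:**
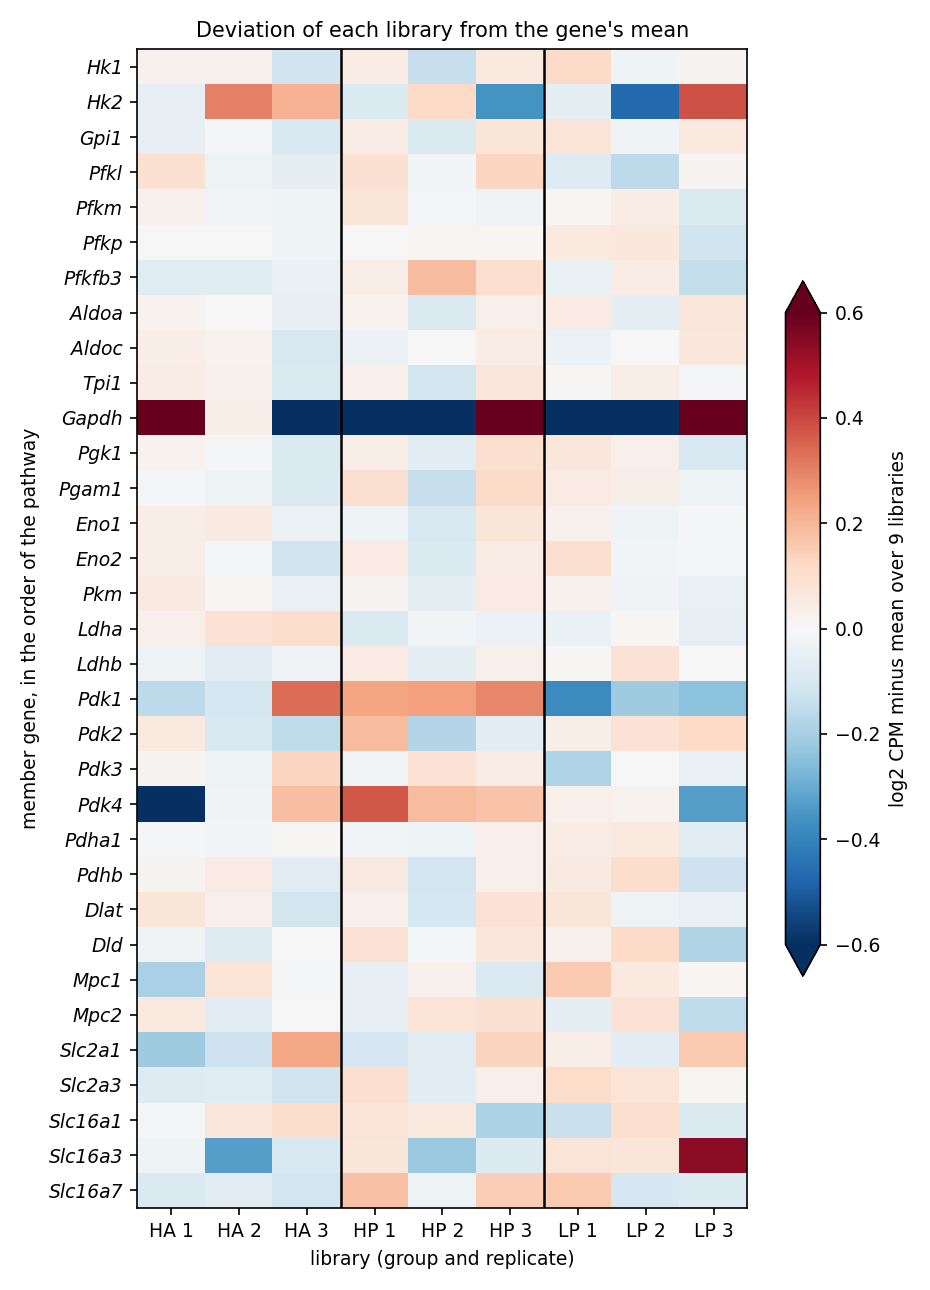
Log2 CPM of each of the 33 named members minus its mean over the 9 libraries, in the order of the pathway, with colours capped at 0.6 either way. Most rows are pale, while the Gapdh row follows HP replicate 3 and other single libraries and the Pdk1 row is red in HP and HA replicate 3 and blue in LP and the other HA libraries.

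The surrounding metabolism was read from further lists. None of the 10 lists, with 163 genes tested in all, held a called gene in any comparison. Of 20 other glycolytic genes tested, 0 reached an unadjusted p under 0.05 in any comparison. Among 11 other genes of pyruvate use, Gpt2, the mitochondrial alanine aminotransferase, had 73.6, 84.8 and 84.0 CPM in HA, 93.8, 89.9 and 97.3 CPM in HP, and 95.3, 94.6 and 89.7 CPM in LP. HA lay below both other groups without overlap, by -0.21 on the log2 scale against HP (SE 0.06, edgeR adjusted p = 0.840) and by -0.21 against LP (SE 0.06, edgeR adjusted p = 0.645). Of 21 other transporters, 17 had lower estimates in HP than in LP and 17 had higher estimates in HA than in HP, with the HP libraries in both comparisons. Their median log2 fold changes were -0.15 and 0.13, against 0.00 and 0.00 over all genes. In HA against LP, 13 had higher and 8 lower estimates, with a median of 0.04. Of the 10 meningeal fibroblast markers, 9 had lower estimates in HP than in LP and 10 higher estimates in HA than in HP, and of the 12 endothelial markers the numbers were 8 and 10. Their part in the transporter estimates was not tested. Slc2a13, the proton-coupled inositol transporter, had the smallest p of the list in HA against LP, at -0.16 (SE 0.05, edgeR adjusted p = 0.663).

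The tricarboxylic acid cycle, which takes up the acetyl-CoA made here, had 21 genes tested, with median log2 fold changes of 0.00 in HP against LP and -0.04 in each comparison of HA. Of 15 glycogen genes, 3 had an unadjusted p under 0.05 in edgeR for HP against LP, 1 higher and 2 lower in HP, beside 6.12% of all genes. In HA against HP there was 1, higher in HA, beside 5.42%, and in HA against LP 1, lower in HA, beside 6.51%. From this list, Epm2a, which encodes the glycogen phosphatase laforin, had 47.1, 45.8 and 44.4 CPM in HA, 46.1, 42.4 and 47.9 CPM in HP, and 59.3, 52.4 and 52.9 CPM in LP. LP lay above both other groups, and the log2 fold change was -0.27 for HP against LP (SE 0.07, edgeR adjusted p = 0.573) and -0.26 for HA against LP (SE 0.07, edgeR adjusted p = 0.645). The 8 pentose phosphate genes included 0 with an unadjusted p under 0.05. The 17 genes of ketone and fatty acid use had 1 when HP was set against LP, 1 when HA was set against HP and 2 when HA was set against LP. Over all genes the shares were 6.12%, 5.42% and 6.51% in the same order.

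Listed regulators of Pdk genes, hypoxia targets, and glucocorticoid and FOXO targets were counted in the same way. The 18 transcriptional regulators of Pdk genes, among them the PPAR, FOXO and hypoxia-inducible factors, had 0 with an unadjusted p under 0.05 in any comparison. The 15 hypoxia targets had 1 for HP against LP, beside 6.12% of all genes, which was P4ha1, a prolyl hydroxylase of collagen, at 0.22 (SE 0.08, edgeR adjusted p = 0.807). They had 0 between HA and HP, and 3 in HA against LP, beside 6.51% of all genes. These 3 were P4ha1 at 0.20 (SE 0.08, edgeR adjusted p = 0.756), Bnip3, a mitophagy receptor, at -0.15 (SE 0.05, edgeR adjusted p = 0.756) and Ankrd37 at -0.34 (SE 0.14, edgeR adjusted p = 0.757). Of 17 glucocorticoid and FOXO targets, 3 reached that level for HP against LP, all higher in HP, beside 6.12% of all genes. In HA against HP there were 5, all lower in HA, beside 5.42% of all genes, and in HA against LP 2, both lower in HA, beside 6.51%. The list as a whole was split: 8 had higher and 9 lower estimates in HP against LP, 7 and 10 in HA against HP, and 8 and 9 in HA against LP. Its median log2 fold changes were -0.01, -0.14 and -0.07 in the same order. The first 2 of these comparisons share the HP libraries. Zbtb16, a transcription factor that glucocorticoids induce, had 23.2, 34.2 and 35.0 CPM in HA, 41.2, 51.9 and 44.8 CPM in HP, and 34.3, 34.2 and 40.4 CPM in LP. HP was the highest group without overlap, and HA differed from HP by -0.58 on the log2 scale (SE 0.15, edgeR adjusted p = 0.840). Tsc22d3, the glucocorticoid-induced leucine zipper, differed by -0.27 for HA against HP (SE 0.08, edgeR adjusted p = 0.840), and Mt1, a metallothionein, by -0.21 (SE 0.06, edgeR adjusted p = 0.840).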

How the data were processed

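RNA-seq of 9 libraries was analysed from the read counts per gene that the authors deposited, which are whole numbers and not normalized, and from the FPKM values that the authors deposited, which divide by gene length and library size. Deposited and recomputed FPKM agreed within a median ratio of 0.981 to 1.011 per library. The submitters' processing notes list featureCounts 1.5.0-p3, DESeq2 1.16.1, HISAT2 2.0.5 and the build mm9. However, 98.3% of 54495 gene identifiers had the start and end of GENCODE M21 on GRCm38, so coordinates are read as GRCm38. Strand setting and the treatment of reads with several matches are not given in the sources used here, and a gene and its antisense partner cannot be told apart.

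Counts of all 9 libraries were fitted with edgeR 4.0.16 in R 4.3.3 (filterByExpr, TMM scaling, quasi-likelihood F test, group as the only term, two-sided, Benjamini-Hochberg over 17546 genes, threshold 0.05), which was tested on simulated data. SE is the log2 fold change divided by the square root of F, and 95% intervals use the t distribution with the fit's degrees of freedom. CPM use TMM-scaled totals and compare libraries, while FPKM compare genes. Replicates of a group differed by 4.73 to 25.8 in chi-square per degree of freedom, so none was a copy of another. An exact permutation test of 3 against 3 cannot go below p = 0.1 and was not used. Alternatives were DESeq2 1.42.0, limma-voom (limma 3.58.1), other scalings and filters, each library left out, the replicate number as a block, and pseudogene counts added. For HA against HP, a fit to the libraries of these groups with the title code as a term was also run. Pseudogenes were matched to members with blastn 2.17.0, at 90% identity or more over 80% or more of their length. Members and lists were chosen with earlier results of these data known. Values per library are given for the 4 kinases, the 4 members of smallest p in each comparison and the most abundant gene of each step with several genes, and for other lists up to 3 genes of smallest p per comparison were eligible. Same-numbered libraries did not deviate together throughout, so replicate numbers were not treated as pairs.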

Additional observations from a re-analysis of the deposited data

How the results depend on the processing

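Each group holds 3 libraries, which limits precision. Scarce members had wider errors than abundant ones in some cases: Hk2, at 4.17 to 7.53 CPM, had an SE of 0.22 for HP against LP, beside 0.06 for Hk1. Genes called for HP against LP numbered 2, and 1 with library totals only, 53 without the filter on low counts, 32 in DESeq2, 4 with the 6 libraries of the 2 groups, 37 without LP replicate 3 and HA replicate 3, and 1 to 21 with 1 library left out. For HA against HP the number was 2, and 5 without the filter, 8 in DESeq2, 10 without those 2 libraries, and 1 to 9 with 1 library left out. For HA against LP it was 0, and 41 without the filter, 27 in DESeq2, 1 with 6 libraries, 23 without those 2 libraries, and 0 to 14 with 1 library left out. The causes were not tested.

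Members called for HP against LP were 1 (Pdk1) without the filter, in DESeq2 and without LP replicate 3 and HA replicate 3, and 0 to 1 with 1 library left out. The log2 fold change of Pdk1 was then 0.53, 0.54, 0.55 and, without HA replicate 3, 0.53. No member was called for the other 2 comparisons under any alternative run. In all 58 recomputed medians of the members the value moved by less than the spread between libraries. Reversals were Gapdh for HP against LP (-0.67 to 2.72 with 1 library left out, the lowest without HP replicate 3), Pdk3 for HA against HP (-0.00069 in limma-voom, -0.0412 without LP replicate 3 and HA replicate 3, and -0.0412 to 0.0408 with 1 library left out), Pdk2 for HA against HP (0.00031 without those 2 libraries, -0.12 to 0.0584 with 1 left out) and Pdk4 for HA against LP (-0.21 to 0.161 with 1 left out). Shares computed from CPM gave differences of 7.54 and 5.27 percentage points for Pdk1 (HP against LP and HA against LP) and 2.97 for Ldha (HA against LP).

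The labels do not say whether replicate numbers pair the libraries. Same-numbered libraries correlated by -0.028 to 0.486 in their deviations. For replicate 3 the values were 0.159 for HP and LP, 0.118 for HA and HP, and 0.486 for HA and LP. Whether these libraries share a source was not tested. With the replicate number as a block, 4 genes and 0 members were called for HP against LP.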
